A study of Mus musculus with 24 samples.

Results

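The genes described here are 10 genes listed together as targets of the transcription factor NRF2 and oxidant defence. The list does not say which of them depend on NRF2. They were taken by symbol from the 54532 gene identifiers that were counted. They are Nfe2l2, which encodes NRF2 itself, and Slc7a11, Gclc, Gclm, Txnrd1, Srxn1, Hmox1, Nqo1, Cat and Sod2. All 10 matched 1 identifier each and all 10 passed the filter on low counts. Their RNA was measured by bulk RNA sequencing of kidney in 24 libraries. Knockout mice lacked Lrp2, the gene of the endocytic receptor megalin, in the proximal tubule. Their littermates were wild type, and both genotypes ate a Western diet, a fat-rich feed, for 2 or 12 weeks. Each of the 4 groups holds 6 libraries. No group on another diet was included, so each comparison is between genotypes on Western diet or between durations of it. LRP2-SM22, the name of the line in the labels, is left unexplained there, and neither the driver of the deletion nor the sex or age of the mice was stated in the sources used here. Whether each library came from its own animal is not said, so the p-values cover the spread among libraries, which may be technical.

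NRF2 is held in the cytoplasm by KEAP1, which presents it for degradation. Oxidants and electrophiles modify KEAP1, and NRF2 then accumulates in the nucleus, pairs with small MAF proteins and binds antioxidant response elements near its target genes. Its targets make glutathione, recycle thioredoxin and peroxiredoxins, break down haem and reduce quinones. In the kidney the proximal tubule is rich in mitochondria and peroxisomes and carries much of the catalase, superoxide dismutase and glutathione synthesis.

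Levels are in CPM, that is counts per megacount, with library sizes scaled by TMM. Total counts per library ranged from 15.6 to 34.1 megacounts in wild type and 16.3 to 25.2 in knockout at 2 weeks, and from 11.4 to 14.5 and 11.3 to 15.2 at 12 weeks. Lrp2, the deleted gene, did not overlap between genotypes at either duration and fell to 17.8% of wild type at 2 weeks and 17.6% at 12 weeks by the fitted fold (edgeR adjusted p = 2.4e-06 and 3.9e-07). Markers of injured tubule cells were higher in knockout at both durations, 9 of 9 genes each time. Over all tested genes, 18.2% passed as higher at 2 weeks and 20.7% at 12 weeks. The marker lists were chosen with earlier results of these data known, so their counts are descriptive. The summed level of the injury markers was 664 to 914 CPM in wild type and 5991 to 12060 CPM in knockout at 2 weeks. At 12 weeks it was 570 to 703 against 2832 to 6138 CPM. The summed level of 14 proximal tubule markers other than Lrp2 ran from 35519 to 46357 CPM in wild type and from 27751 to 43429 CPM in knockout at 2 weeks, where knockout replicates 2 and 6 (43429 and 36327 CPM) lay inside the wild-type range and the other 4 below it. At 12 weeks it ran from 44356 to 53510 CPM in wild type and from 23849 to 37340 CPM in knockout. Fewer cells of a type and less RNA per cell cannot be told apart in such bulk samples.

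Promoter stretches are shown first, as a description of sequence only. Windows of 250 bases before to 50 bases after a start, from RefSeq on GRCm38.p6, were found for 8 of the 10 genes, with 3 starts for Txnrd1. They were searched on both strands for the core of the antioxidant response element (TGACNNNGC), for the AP-1 site (TGACTCA) and for a composite site of ATF4 and C/EBP factors (TGATGNAA). These 3 motifs occur in 12.4%, 5.2% and 3.97% of all 32817 windows. Capitals mark the matches below, all sequences run 5′ to 3′ on the strand of the gene, and positions are counted from the start.
Slc7a11 (chr3:50443639-50443718, minus strand, 2 ATF4-C/EBP matches): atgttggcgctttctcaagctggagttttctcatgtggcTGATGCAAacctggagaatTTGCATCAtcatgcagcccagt
Nfe2l2 (chr2:75704874-75704913, minus strand, 1 antioxidant response element core): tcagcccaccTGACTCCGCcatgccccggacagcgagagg
Gclm (chr3:122245397-122245456, plus strand, 1 core on the other strand): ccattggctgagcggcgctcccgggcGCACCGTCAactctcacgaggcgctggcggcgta
Txnrd1 (chr10:82859088-82859147, plus strand, the second start, 1 core on the other strand): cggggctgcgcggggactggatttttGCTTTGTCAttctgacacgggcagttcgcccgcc
Srxn1 (chr2:152105409-152105498, plus strand, 2 AP-1 matches): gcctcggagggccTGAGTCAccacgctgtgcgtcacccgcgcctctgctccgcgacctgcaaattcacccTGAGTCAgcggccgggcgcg

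Srxn1 also held 1 core of the antioxidant response element after its start, at 29 to 37. Only the letters given above were searched. Other forms of these elements were not counted in any window, the printed stretch of Srxn1 included. The windows of Nqo1, Cat and Sod2 held no match to any of the 3 motifs, which says only that these letters are not in these 300 bases. A match describes the sequence and is not evidence of binding, and no binding was measured here.

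**Figure D1:**
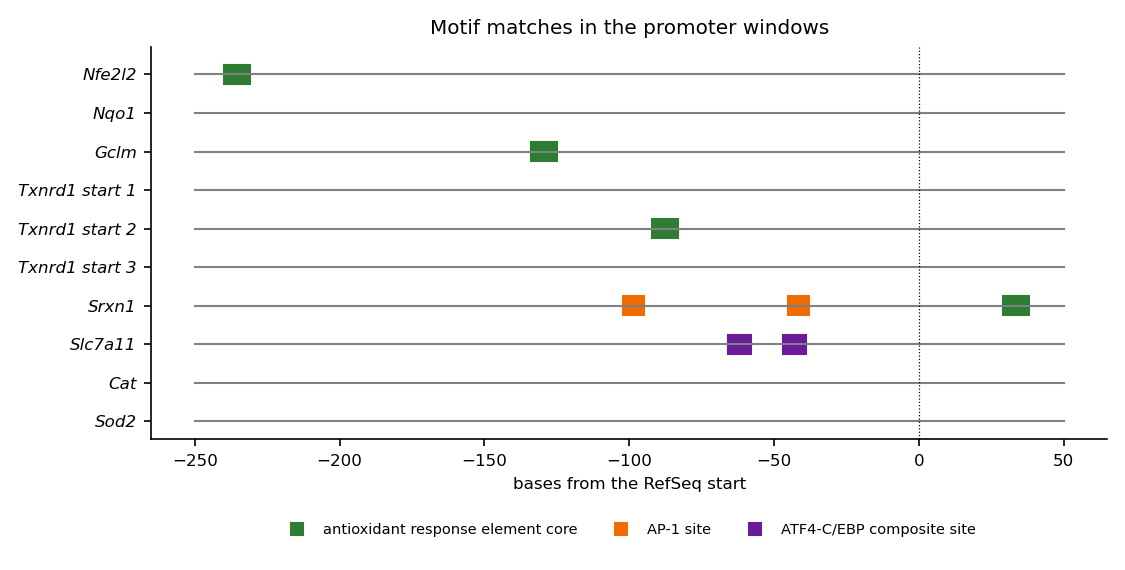
Matches to 3 motifs (coloured boxes) in the promoter windows of 8 genes, with position in bases from the RefSeq start on the x axis and 1 line per start. Slc7a11 alone among these windows holds the ATF4-C/EBP composite site, with 2 matches, and 4 windows hold the antioxidant response element core.

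Slc7a11 and Hmox1 RNA rose and Cat and Sod2 RNA fell in knockout kidneys after 2 weeks of diet, while 6 of the 10 genes, Nfe2l2 and Nqo1 among them, did not pass. After 12 weeks the same 4 genes passed in the same directions, Nfe2l2 also rose, and Gclc and Gclm fell. In the counts, 2 genes rose and 2 fell at 2 weeks, where the edgeR quasi-likelihood test called 31.6% of all 17286 tested genes (18.2% higher, 13.4% lower), and 3 rose and 4 fell at 12 weeks, where it called 38.5% (20.7% higher, 17.7% lower). The median log2 fold change of the 10 genes was -0.10 at each duration, beside -0.01 and 0.00 over all tested genes. Knockout and wild-type libraries were fully apart for 1 of the 10 genes at 2 weeks (Sod2) and for 2 at 12 weeks (Gclm and Sod2), and all of these were lower in knockout, beside 16.6% and 18.4% of all genes in either direction and 6.32% and 8.3% of all genes lower. Without knockout replicate 2 the count at 2 weeks was 2 higher and 4 lower, as Gclc and Gclm then passed.

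**Figure D2:**
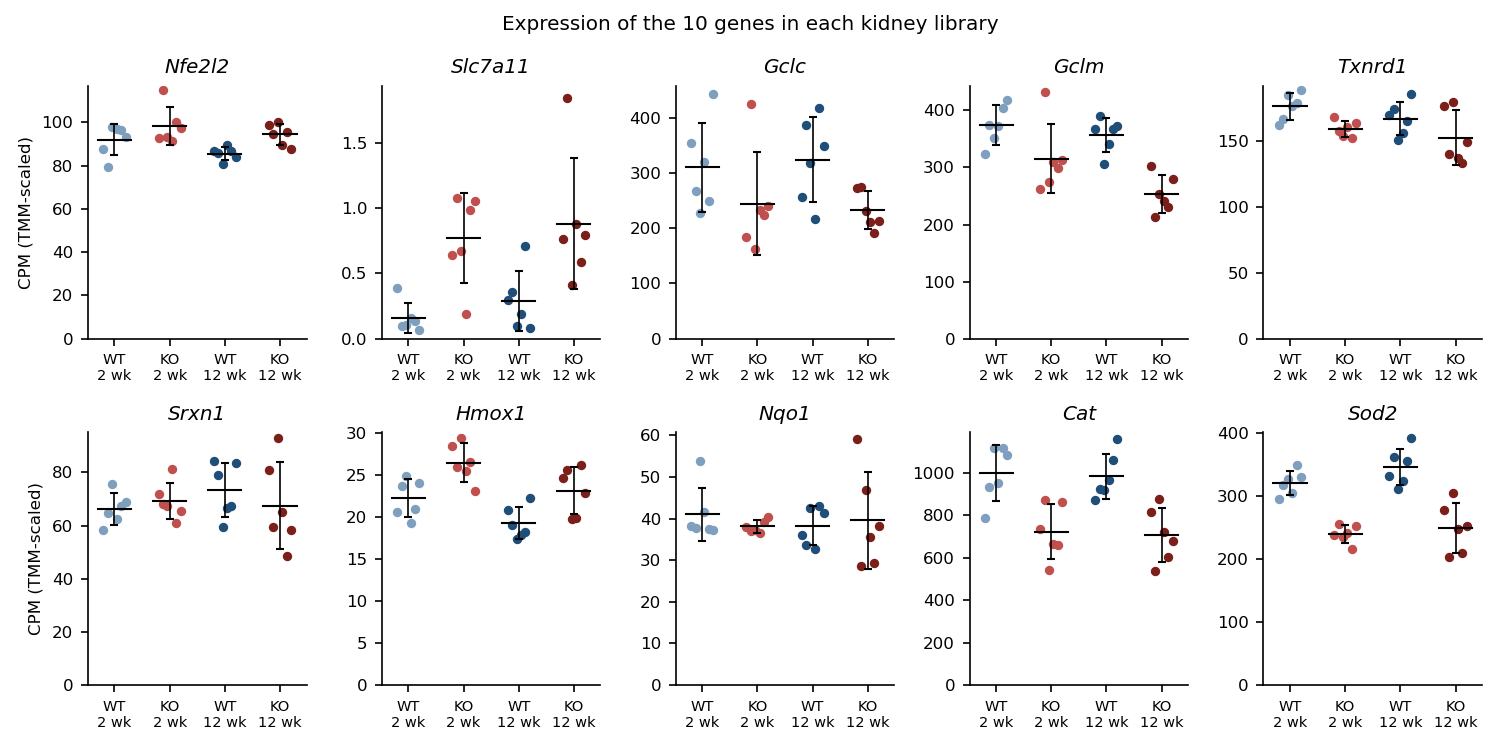
CPM of each of the 10 genes (y axes start at 0) in the 4 groups. Each point is 1 library, the line is the mean and the bar 1 SD over 6 libraries. Sod2 points of knockout lie below all wild-type points at both durations, and Slc7a11 stays near or below 1 CPM in most libraries.

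**Figure D3:**
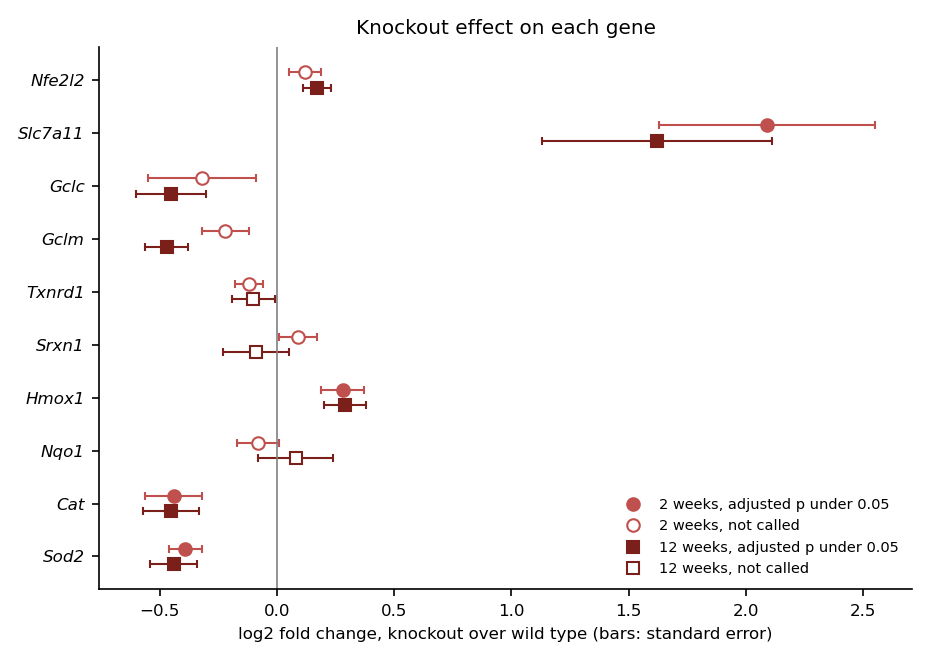
Log2 fold change of knockout over wild type (x axis) with its standard error for each gene at 2 weeks (circles) and 12 weeks (squares). Filled symbols passed adjusted p under 0.05 in edgeR. Slc7a11 stands at 2.09 and 1.62, and the other genes lie between -0.47 and 0.29.

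Nfe2l2 (chromosome 2, 75675513 to 75704641, minus strand, mm10) showed small differences. At 2 weeks the wild-type libraries held 79.4 to 97.8 CPM of Nfe2l2 with a median of 95, and the knockout libraries 91.3 to 115 CPM with a median of 95.4, so the groups overlapped, with close medians. The log2 fold change of Nfe2l2 was 0.12 (SE 0.07, edgeR adjusted p = 0.222). At 12 weeks wild type ran from 80.5 to 89.5 CPM (median 86) and knockout from 87.7 to 100 CPM (median 95.1), with 5 of 6 knockout libraries above all wild-type ones. Nfe2l2 RNA was then 1.13-fold higher in knockout (edgeR adjusted p = 0.0234, log2 fold change 0.17 with SE 0.06). That call ended in 3 alternatives, with edgeR adjusted p = 0.0776 without the filter on low counts, 0.0571 with a replicate block and 0.0725 with all 24 libraries in 1 fit. NRF2 is controlled largely through its degradation, so the RNA level does not give its activity.

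Slc7a11 (chromosome 3, 49892526 to 50443614, minus strand) encodes the light chain of the antiporter that brings in cystine, the precursor of glutathione, and it showed the largest fold change and the lowest level of the 10. At 2 weeks it had 14, 2, 2, 3, 2 and 1 counts in wild-type replicates 1 to 6, that is 0.389, 0.0975, 0.104, 0.155, 0.134 and 0.0621 CPM. The knockout libraries held 18, 19, 16, 4, 19 and 19 counts, or 0.638, 1.08, 0.676, 0.186, 0.984 and 1.06 CPM. Replicate 4 was the low one in knockout and replicate 1, the deepest library, the high one in wild type, and 5 of 6 knockout libraries lay above all wild-type ones. Slc7a11 rose 4.26-fold (edgeR adjusted p = 0.0019, log2 fold change 2.09 with SE 0.46), and without wild-type replicate 1 the log2 fold change was 2.74. At 12 weeks Slc7a11 stood at 0.293, 0.354, 0.0985, 0.187, 0.711 and 0.0838 CPM in wild type, on 1 to 7 counts, and at 0.767, 1.85, 0.41, 0.882, 0.59 and 0.798 CPM in knockout, on 5 to 23 counts. Wild-type replicate 5 overlapped the knockout range, and knockout replicate 2 was the highest library of the study. The rise of Slc7a11 was 3.08-fold (edgeR adjusted p = 0.0155, log2 fold change 1.62 with SE 0.49). Slc3a2, the heavy chain that pairs with it and with other amino acid transporters, fell at both durations, from 144 ± 10.5 to 114 ± 11 CPM at 2 weeks (mean ± SD, n = 6, log2 fold change -0.32, edgeR adjusted p = 0.00355) and from 137 ± 19.1 to 110 ± 4.08 CPM at 12 weeks (edgeR adjusted p = 0.00998, log2 fold change -0.28). Atf4, named outside the rule for naming genes, had log2 fold changes of 0.22 at 2 weeks (edgeR adjusted p = 0.0214) and 0.23 at 12 weeks (edgeR adjusted p = 0.0582). It thus did not pass at 12 weeks. Macrophage and monocyte markers also rose in knockout at both durations. In knockout at 12 weeks their summed level was highest in replicate 2 (1292 CPM), as was Slc7a11. In knockout at 2 weeks it was highest in replicate 3 (1047 CPM), where Slc7a11 was not highest. The parts of ATF4 and of these cells in the level of Slc7a11 were not tested.

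Gclc and Gclm encode the catalytic and the modifier subunit of glutamate-cysteine ligase, the first and rate-limiting step of glutathione synthesis. Gclc (chromosome 9, 77754535 to 77794485, plus strand) varied widely between libraries, with a coefficient of variation from 14.9% in knockout at 12 weeks to 38.4% in knockout at 2 weeks. At 2 weeks its wild-type libraries held 355, 268, 228, 320, 250 and 444 CPM and its knockout libraries 184, 426, 162, 233, 224 and 240 CPM. Knockout replicate 2 stood far above the other 5 knockout libraries of Gclc, and the groups overlapped. The log2 fold change of Gclc was -0.32 (SE 0.23, edgeR adjusted p = 0.318), and without knockout replicate 2 it was -0.55 (edgeR adjusted p = 0.0185). At 12 weeks Gclc stood at 257, 388, 319, 217, 418 and 349 CPM in wild type and at 273, 275, 232, 212, 191 and 213 CPM in knockout, which lay in the lower part of the wild-type range or below it. It fell to 0.73 of wild type (edgeR adjusted p = 0.0236, log2 fold change -0.45 with SE 0.15). The call for Gclc at 12 weeks ended with each of wild-type replicates 2 and 5 and knockout replicates 4 and 5 left out, with edgeR adjusted p from 0.0501 to 0.0598, and with all 24 libraries in 1 fit, with edgeR adjusted p = 0.0612.

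Gclm (chromosome 3, 122245557 to 122270732, plus strand) also had lower means in knockout than in wild type at both durations, with less spread than Gclc in each group. Its values at 2 weeks were 323, 375, 351, 372, 404 and 419 CPM in wild type and 263, 432, 274, 310, 299 and 313 CPM in knockout. Replicate 2 was again the high knockout library, above all wild-type ones, whereas the other 5 lay below all of them. The log2 fold change of Gclm was -0.22 (SE 0.10, edgeR adjusted p = 0.116), and without knockout replicate 2 it was -0.33 (edgeR adjusted p = 0.00415). At 12 weeks Gclm ran from 306 to 390 CPM in wild type (median 368) and from 213 to 303 CPM in knockout (median 247), with no overlap. It fell to 0.72 of wild type (edgeR adjusted p = 0.00129, log2 fold change -0.47 with SE 0.09). Gclm overlaps a predicted gene on the opposite strand over 4.71% of its exonic length and one on its own strand over 3.88%. Knockout replicate 2 at 2 weeks, the library that decided these calls, also held the most Lrp2 of that group (584 CPM against 192 to 432 CPM) and the most proximal tubule marker RNA (43429 CPM against 27751 to 36327 CPM), and its summed injury markers were at 10201 CPM, inside the range of the other knockout libraries. The part of these differences in the values of Gclc and Gclm was not tested.

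Txnrd1 encodes cytosolic thioredoxin reductase and Srxn1 encodes sulfiredoxin, which repairs overoxidised peroxiredoxins. Neither passed at either duration. Txnrd1 (chromosome 10, 82833951 to 82897712, plus strand) ran from 162 to 189 CPM in wild type (median 178) and from 152 to 168 CPM in knockout (median 160) at 2 weeks. At 12 weeks the ranges of Txnrd1 were 151 to 186 CPM (median 167) and 133 to 180 CPM (median 145). The log2 fold changes of Txnrd1 were -0.12 and -0.10 (edgeR adjusted p = 0.182 and 0.404), with bounds of 2 SE at -0.25 and 0.01 and at -0.28 and 0.08. Srxn1 (chromosome 2, 152105516 to 152111376, plus strand) ran from 58.3 to 75.6 CPM in wild type (median 66) and 61 to 81.1 CPM in knockout (median 67.7) at 2 weeks, and from 59.5 to 84.3 CPM (median 73.2) and 48.5 to 92.8 CPM (median 62.2) at 12 weeks. Its log2 fold changes were 0.09 and -0.09 (edgeR adjusted p = 0.412 and 0.645), with bounds of 2 SE at -0.07 and 0.25 and at -0.38 and 0.19. The knockout spread of Srxn1 was wider at 12 weeks, with a coefficient of variation of 24.3% against 9.89% at 2 weeks, a difference that was not tested.

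Hmox1 encodes the inducible haem oxygenase and Nqo1 the quinone reductase that is widely used as a readout of NRF2. Hmox1 (chromosome 8, 75093621 to 75100589, plus strand) stood at 20.6, 23.7, 24.8, 19.3, 20.9 and 24 CPM in wild type and at 28.4, 25.9, 29.4, 25.4, 26.5 and 23 CPM in knockout at 2 weeks. All knockout libraries but replicate 6 lay above all wild-type ones. Hmox1 rose 1.22-fold (edgeR adjusted p = 0.0191, log2 fold change 0.28 with SE 0.09). At 12 weeks Hmox1 stood at 20.8, 19, 17.3, 17.8, 18.2 and 22.2 CPM in wild type and at 24.6, 25.5, 19.7, 19.8, 26.1 and 22.8 CPM in knockout, where 4 of 6 libraries lay above all wild-type ones. The rise was 1.23-fold (edgeR adjusted p = 0.0212, log2 fold change 0.29 with SE 0.09). The call ended at 2 weeks without wild-type replicate 4 (edgeR adjusted p = 0.0508) and at 12 weeks without knockout replicate 5 (edgeR adjusted p = 0.0553). Macrophages are a known source of Hmox1, and 11 of 11 tested macrophage and monocyte markers rose at each duration. Of all tested genes, 18.2% passed as higher at 2 weeks and 20.7% at 12 weeks. Summed levels of these markers were 133 to 183 CPM in wild type against 410 to 1047 CPM in knockout at 2 weeks. At 12 weeks they were 131 to 365 against 595 to 1292 CPM. The marker Cd163 had too few counts to be tested, no marker of that list was at 0 counts in a whole group, and the part of these cells in the level of Hmox1 was not tested.

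Nqo1 (chromosome 8, 107388225 to 107403206, minus strand) ran from 37.3 to 53.7 CPM in wild type (median 38) and from 36.5 to 40.4 CPM in knockout (median 37.6) at 2 weeks. All 6 knockout libraries lay within 4 CPM of each other, and wild-type replicate 3 stood above all others. The log2 fold change of Nqo1 was -0.08 (SE 0.09, edgeR adjusted p = 0.531), with bounds of 2 SE at -0.25 and 0.09. At 12 weeks Nqo1 stood at 36.1, 33.6, 42.6, 32.7, 43 and 41.4 CPM in wild type and at 59.1, 28.6, 46.8, 35.5, 29.2 and 38.1 CPM in knockout, which held both the highest and the lowest library. The log2 fold change was 0.08 (SE 0.16, edgeR adjusted p = 0.743), with bounds of 2 SE at -0.25 and 0.41, so a change of Nqo1 larger than these bounds was not seen, and smaller ones cannot be told from the spread. The sign of Nqo1 turned without wild-type replicate 3 at 2 weeks (log2 fold change 0.01) and without knockout replicate 1 at 12 weeks (-0.07).

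Cat and Sod2 encode catalase, the hydrogen peroxide-splitting enzyme of peroxisomes, and the manganese superoxide dismutase of mitochondria. Cat (chromosome 2, 103453849 to 103485160, minus strand) stood at 788, 933, 1115, 951, 1116 and 1082 CPM in wild type and at 735, 872, 542, 662, 661 and 862 CPM in knockout at 2 weeks. The groups overlapped through the low wild-type replicate 1 and knockout replicates 2 and 6. Cat fell to 0.74 of wild type (edgeR adjusted p = 0.00635, log2 fold change -0.44 with SE 0.12). At 12 weeks Cat stood at 870, 923, 918, 966, 1059 and 1158 CPM in wild type and at 817, 535, 874, 721, 602 and 679 CPM in knockout, and only knockout replicate 3 reached the wild-type range. The fall was to 0.73 of wild type (edgeR adjusted p = 0.00825, log2 fold change -0.45 with SE 0.12).

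Sod2 (chromosome 17, 13006846 to 13040063, plus strand) was the gene with the cleanest separation. At 2 weeks it stood at 295, 318, 328, 305, 349 and 331 CPM in wild type and at 239, 256, 235, 241, 217 and 253 CPM in knockout, with every knockout library below every wild-type one. Sod2 fell to 0.76 of wild type (edgeR adjusted p = 0.00026, log2 fold change -0.39 with SE 0.07). At 12 weeks the wild-type libraries of Sod2 held 333, 362, 312, 325, 356 and 392 CPM and the knockout libraries 279, 203, 305, 248, 210 and 253 CPM, again without overlap. It fell to 0.74 of wild type (edgeR adjusted p = 0.00307, log2 fold change -0.44 with SE 0.10). Beside these falls, 12 of 15 proximal tubule markers fell at 2 weeks with a median log2 fold change of -0.52, and 14 of 15 at 12 weeks with a median of -0.72, Lrp2 included. Over all tested genes, 13.4% passed as lower at 2 weeks and 17.7% at 12 weeks. The part of the lower proximal tubule RNA in the levels of Cat, Sod2, Gclc and Gclm was not tested.

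The knockout effect did not pass a test of difference between durations for any of the 10 genes. In the edgeR interaction test 0 of 10 passed, 0 had an unadjusted p under 0.05 and 0 passed in DESeq2, beside 30 genes (0.174%) of all tested. The interaction of Gclm was -0.25 (bounds of 2 SE -0.54 and 0.05, edgeR adjusted p = 0.566), that of Slc7a11 -0.45 (bounds -1.86 and 0.95), that of Cat -0.01 (bounds -0.36 and 0.34) and that of Sod2 -0.06 (bounds -0.30 and 0.19). The interaction of Gclc was -0.14 (bounds -0.71 and 0.44), and 0.11 without knockout replicate 2 of 2 weeks. Between 2 and 12 weeks, 0 of 10 genes passed in wild type by edgeR or DESeq2, with 1 at an unadjusted p under 0.05, while 30.4% of all genes passed. In knockout 1 of 10 passed, as Gclm fell to 0.80 of its level at 2 weeks (315 ± 60.7 to 253 ± 33.1 CPM, edgeR adjusted p = 0.0208, log2 fold change -0.31 with SE 0.10), beside 33.8% of all genes in either direction and 16.1% lower. That call ended without knockout replicate 2 of either duration. The libraries of the 2 durations carry different name series and depths, so duration and any difference between these sets of libraries cannot be told apart.

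Per kilobase of exonic length, the levels of the 10 genes in wild type at 2 weeks spanned several orders of magnitude. Cat was highest at 382 ± 50 CPM per kilobase (mean ± SD, n = 6), followed by Gclc at 82.5 ± 21.2, Gclm at 59.4 ± 5.56 and Sod2 at 32.1 ± 1.95 CPM per kilobase. Nqo1, Txnrd1, Nfe2l2 and Srxn1 stood at 26.4 ± 4.12, 24.9 ± 1.45, 24.2 ± 1.9 and 23.5 ± 2.1 CPM per kilobase and did not differ from their neighbours beyond their SDs. Hmox1 followed at 12.7 ± 1.28 and Slc7a11 at 0.0113 ± 0.00847 CPM per kilobase. In knockout at 12 weeks the order of the top was again Cat at 270 ± 48.9, Gclc at 61.7 ± 9.18 and Gclm at 40.3 ± 5.26 CPM per kilobase, and Sod2 at 24.9 ± 3.92 stood among the middle genes. The length counts all annotated exons of a gene, and which of them are used in these kidneys was not measured.

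The regulators of NRF2 and 10 further lists describe the rest of the oxidant defence. The pathway lists hold 175 genes besides the 10, of which 162 were tested. At 2 weeks 24 of them rose and 57 fell (50% called, against 31.6% of all genes), and at 12 weeks 28 rose and 67 fell (58.6%, against 38.5%). Their median log2 fold changes were -0.14 and -0.21. These lists, like the 10 genes, were chosen with earlier results of these data known. The shares are therefore descriptive and do not measure an excess over all genes. In the interaction 0 of 162 passed in edgeR, with 11 at an unadjusted p under 0.05 and 1 passing in DESeq2. The counts of each list below stand beside shares over all tested genes of 18.2% higher and 13.4% lower at 2 weeks. At 12 weeks these shares were 20.7% higher and 17.7% lower.

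**Figure D4:**
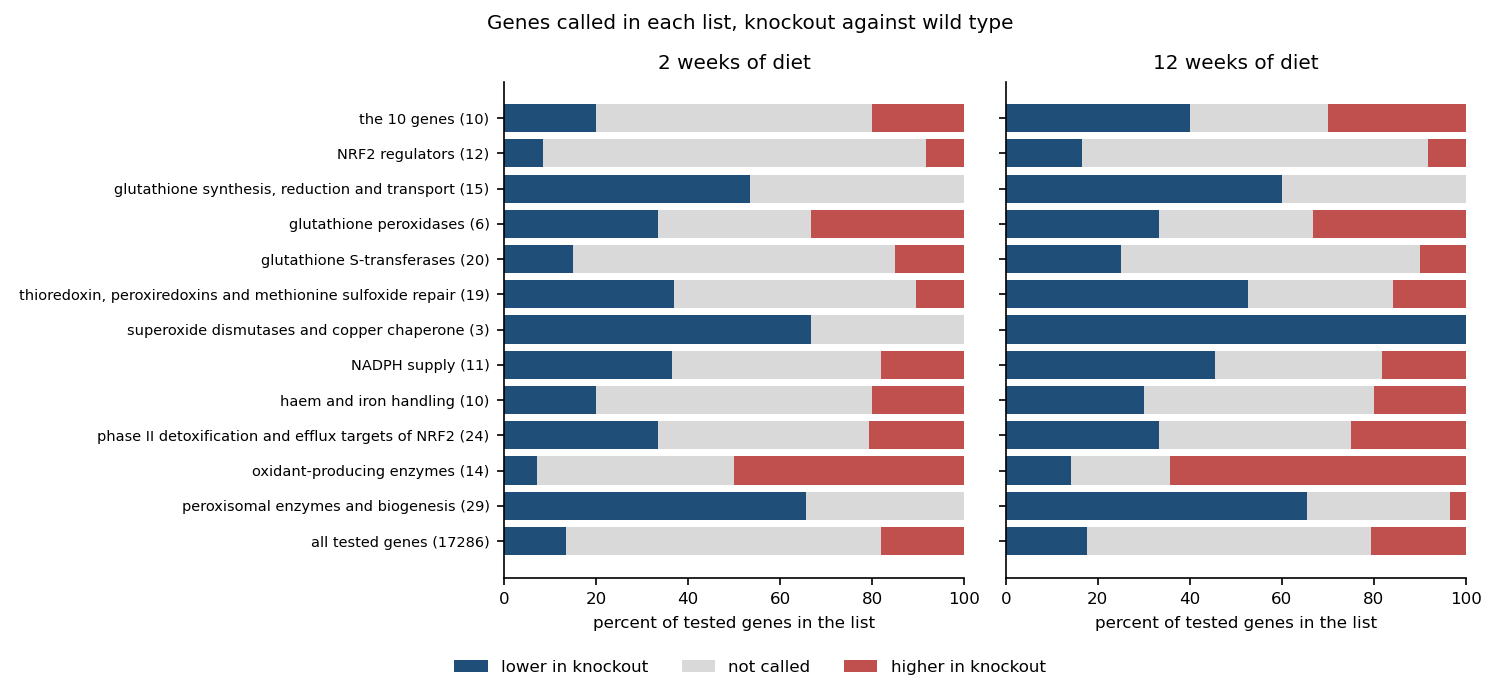
Percent of the tested genes of each list (number in brackets) that were lower (blue), not called (grey) or higher (red) in knockout at 2 weeks (left) and 12 weeks (right). Peroxisomal and glutathione synthesis genes were mostly lower, oxidant-producing enzymes were the list with the largest share higher, and all tested genes are shown at the bottom.

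Among 12 regulators of NRF2, 1 rose and 1 fell at 2 weeks and 1 rose and 2 fell at 12 weeks. Maff, a small MAF protein that pairs with NRF2 and with the repressor BACH1, rose from 2.39 ± 0.376 to 8.89 ± 1.28 CPM at 2 weeks (edgeR adjusted p = 3.1e-08, log2 fold change 1.92 with SE 0.15). Its level at 12 weeks went from 2.81 ± 0.717 to 7.31 ± 1.4 CPM, a 2.66-fold rise of Maff (edgeR adjusted p = 8e-05). Of the other small MAF genes, Mafg passed as lower at 2 weeks only, from 169 ± 18.2 to 132 ± 14.6 CPM (edgeR adjusted p = 0.00731). Mafk passed as lower at 12 weeks only, from 48 ± 4.13 to 38.9 ± 3.8 CPM (edgeR adjusted p = 0.0126). Cul3, the ubiquitin ligase scaffold that works with KEAP1, fell to 0.831 of wild type at 12 weeks (edgeR adjusted p = 0.0186, and 0.0504 with a replicate block). Keap1, named outside the rule, did not pass, at 38.2 ± 3 and 33.4 ± 4.5 CPM at 2 weeks (edgeR adjusted p = 0.193, log2 fold change -0.16) and at 51.2 ± 3.55 and 47.6 ± 2.17 CPM at 12 weeks (edgeR adjusted p = 0.343, log2 fold change -0.07).

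Genes that make, recycle and move glutathione fell in 8 of 15 cases at 2 weeks and in 9 of 15 at 12 weeks, with none higher and medians of -0.21 and -0.28. Ggt1, the brush border enzyme that splits extracellular glutathione, fell from 1124 ± 110 to 765 ± 136 CPM at 2 weeks (edgeR adjusted p = 0.00106, log2 fold change -0.53) and from 1032 ± 89.3 to 616 ± 87.6 CPM at 12 weeks (edgeR adjusted p = 0.00013, log2 fold change -0.71). Cbs, which makes cystathionine on the way from homocysteine to cysteine, fell to 0.633 and 0.549 of wild type (edgeR adjusted p = 0.00016 and 0.00013). Gsr, the glutathione reductase gene, fell to 0.826 and 0.721 (edgeR adjusted p = 0.00716 and 0.00076).

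Of 6 tested glutathione peroxidases 2 rose and 2 fell at each duration. Gpx3, the plasma peroxidase made in the proximal tubule, was the most abundant and fell from 17427 ± 3176 to 11124 ± 2126 CPM at 2 weeks (edgeR adjusted p = 0.00241, log2 fold change -0.62 with SE 0.14). At 12 weeks Gpx3 fell from 20392 ± 1960 to 11555 ± 2604 CPM (edgeR adjusted p = 0.00073, log2 fold change -0.79 with SE 0.15). Gpx7 and Gpx8, peroxidases of the endoplasmic reticulum, rose 3.73-fold to 3.64 ± 0.89 CPM and 1.47-fold to 17.3 ± 3.6 CPM at 2 weeks (edgeR adjusted p = 4.1e-06 and 0.00596), and 2.42-fold and 1.81-fold at 12 weeks (edgeR adjusted p = 0.00151 and 0.00172). Gpx6 at 2 weeks and Gpx1 at 12 weeks were the other fallers, to 0.805 and 0.807 of wild type (edgeR adjusted p = 0.0158 and 0.0333). The call of Gpx6 ended with all 24 libraries in 1 fit (edgeR adjusted p = 0.1), and that of Gpx1 without the filter on low counts (0.0566), with a replicate block (0.0576) and without each of wild-type replicates 1, 2 and 6 and knockout replicates 2, 4, 5 and 6 of 12 weeks. The glutathione S-transferases gave 3 higher and 3 lower of 20 at 2 weeks and 2 higher and 5 lower at 12 weeks, with medians of -0.07 and -0.11. These counts stood near the shares over all tested genes, 31.6% and 38.5%. Mgst1, a microsomal member, rose 1.67-fold at 2 weeks (33.2 ± 5.45 to 54.5 ± 10.5 CPM, edgeR adjusted p = 0.00035) and Gsto1 1.57-fold at 12 weeks (22.3 ± 4.21 to 34.4 ± 1.86 CPM, edgeR adjusted p = 0.00024). Gsta4, which clears lipid peroxidation products, fell to 0.689 at 2 weeks (edgeR adjusted p = 0.00061). Reads of close paralogs in this family may be shared, which makes single members uncertain.

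In the thioredoxin, peroxiredoxin and methionine sulfoxide repair list 2 of 19 genes rose and 7 fell at 2 weeks, and 3 rose and 10 fell at 12 weeks. The mitochondrial methionine sulfoxide reductase gene Msrb2 fell to 0.781 and 0.736 of wild type (edgeR adjusted p = 0.00246 and 0.00022), and Prdx3, the peroxiredoxin of mitochondria, fell to 0.822 at 2 weeks (201 ± 12.2 to 163 ± 12.7 CPM, edgeR adjusted p = 0.00461). Txnip, the inhibitor of thioredoxin, rose 1.41-fold at 12 weeks from 305 ± 35.1 to 423 ± 66.2 CPM (edgeR adjusted p = 0.00252), with 19.4% of its exonic length opposite another gene. With a replicate block the list had 5 calls at 2 weeks. Of the other superoxide dismutases, cytosolic Sod1 fell to 0.784 of wild type at 2 weeks (429 ± 40 to 329 ± 38 CPM, edgeR adjusted p = 0.00604) and to 0.762 at 12 weeks (516 ± 41.7 to 386 ± 46.9 CPM, edgeR adjusted p = 0.00391). Extracellular Sod3 fell to 0.722 at 12 weeks (edgeR adjusted p = 0.00502), and Ccs, the copper chaperone of Sod1, to 0.785 and 0.773 (edgeR adjusted p = 0.0436 and 0.0122). The call of Ccs at 2 weeks ended with a replicate block (edgeR adjusted p = 0.0806), with upper-quartile scaling (0.0539), without the filter on low counts (0.0729) and without each of wild-type replicates 1, 2, 4, 5 and 6 and knockout replicates 3 to 6.

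NADPH-supplying enzymes gave 2 higher and 4 lower of 11 at 2 weeks and 2 higher and 5 lower at 12 weeks. The 2 that rose at each duration were Pgd and G6pdx, both of the pentose phosphate pathway, Pgd 1.31-fold at 2 weeks (90.2 ± 4.51 to 116 ± 13.9 CPM, edgeR adjusted p = 0.00145) and G6pdx 1.22-fold at 12 weeks (27 ± 1.49 to 32.3 ± 1.82 CPM, edgeR adjusted p = 0.00286). None of the other genes of that pathway in the list passed as higher. Pgls and Tkt did not pass, with log2 fold changes of 0.07 and -0.05 for Pgls and 0.20 and 0.25 for Tkt. Tkt thus had a positive fold change at both durations without passing. Taldo1 did not pass at 2 weeks (-0.09) and fell at 12 weeks (edgeR adjusted p = 0.0147, log2 fold change -0.25). The mitochondrial isocitrate dehydrogenase gene Idh2 fell to 0.729 and 0.723 of wild type (edgeR adjusted p = 0.00018 and 0.00361), and Me1, the cytosolic malic enzyme, to 0.668 at 12 weeks (edgeR adjusted p = 0.00043). In the list of haem and iron handling 2 of 10 genes rose and 2 fell at 2 weeks, and 2 rose and 3 fell at 12 weeks. Slc40a1, the iron exporter ferroportin, rose 1.63-fold at 2 weeks (47.4 ± 6.2 to 75.9 ± 6.48 CPM, edgeR adjusted p = 5.8e-06) and 1.15-fold at 12 weeks (edgeR adjusted p = 0.0189, and 0.0702 with all 24 libraries in 1 fit). Hp, the gene of the haemoglobin-binding haptoglobin, rose at both durations with log2 fold changes of 1.67 and 3.38 (edgeR adjusted p = 0.0256 and 0.00943). The call of Hp at 2 weeks ended without the filter on low counts (edgeR adjusted p = 0.0644), with a replicate block (0.0679), with all 24 libraries in 1 fit (0.0556) and without each of wild-type replicates 2, 5 and 6 and knockout replicate 3, and at 12 weeks its log2 fold change was 5.53 without wild-type replicate 1. Ftl1, the ferritin light chain, fell to 0.765 and 0.792 (edgeR adjusted p = 0.00314 and 0.0117), although 26.49% of its exonic length lies opposite other genes.

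The list of detoxification and efflux genes was split, with 5 of 24 higher and 8 lower at 2 weeks. At 12 weeks 6 were higher and 8 lower. The list was drawn up as targets of NRF2, but which of its genes depend on NRF2 was not tested. Akr1b8, an aldo-keto reductase, rose 5.97-fold from 1.73 ± 0.296 to 10.2 ± 3.04 CPM at 2 weeks (edgeR adjusted p = 2.7e-08, log2 fold change 2.58 with SE 0.20) and 3.98-fold at 12 weeks (edgeR adjusted p = 1.8e-05). The efflux pump gene Abcc3 rose 2.52-fold and 2.85-fold, to 8.68 ± 1.87 and 10 ± 2.85 CPM (edgeR adjusted p = 2.8e-06 and 0.00015). Abcc4 and the epoxide hydrolase gene Ephx1 rose 1.71-fold and 1.63-fold at 12 weeks (edgeR adjusted p = 0.00052 and 0.00016). The abundant reductase gene Akr1a1 fell from 1549 ± 77.5 to 1076 ± 78.2 CPM at 2 weeks (edgeR adjusted p = 0.0001) and Aldh9a1, an aldehyde dehydrogenase, to 0.648 of wild type (edgeR adjusted p = 2.6e-05).

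Oxidant-producing enzymes rose in 7 of 14 cases and fell in 1 at 2 weeks, and rose in 9 and fell in 2 at 12 weeks (medians 0.41 and 1.07). The subunits of the phagocyte NADPH oxidase led the list. Cybb, its catalytic subunit, rose 3.13-fold from 10.8 ± 0.901 to 33.1 ± 8 CPM at 2 weeks (edgeR adjusted p = 8.5e-08) and 2.89-fold from 16.2 ± 3.24 to 46 ± 19.7 CPM at 12 weeks (edgeR adjusted p = 0.00052). Ncf1 and Rac2, cytosolic partners of it, rose 5.50-fold and 3.86-fold at 2 weeks and 4.94-fold and 3.60-fold at 12 weeks (edgeR adjusted p between 1.4e-07 and 0.00148). These subunits are characteristic of leukocytes, whose markers rose too: 11 of 11 tested macrophage genes, as given above, and the 4 of 9 neutrophil genes that had enough counts to be tested, with summed levels over the 9 of 3.74 to 9.44 against 11.5 to 25.3 CPM at 2 weeks and 1.73 to 6.06 against 6.76 to 16.4 CPM at 12 weeks. With a replicate block 3 of these 4 passed at each duration. Of the neutrophil markers, Ly6g was at 0 counts in all libraries of both groups at 12 weeks, Elane in wild type at 2 weeks and knockout at 12 weeks, and Mpo in knockout at 2 weeks. The part of leukocytes in the rise was not tested. Nox4, the NADPH oxidase of tubule cells and named outside the rule, fell at both durations, from 237 ± 48.3 to 168 ± 44.8 CPM (edgeR adjusted p = 0.0441, log2 fold change -0.47) and from 410 ± 101 to 231 ± 57.3 CPM (edgeR adjusted p = 0.00299, log2 fold change -0.79). Its call at 2 weeks ended with a replicate block (edgeR adjusted p = 0.0939), with upper-quartile scaling (0.0531), without the filter on low counts (0.125) and without each of wild-type replicates 3 to 6 and knockout replicates 1, 3, 4 and 5.

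Peroxisomal genes, the surroundings of catalase, fell in 19 of 29 cases at 2 weeks with none higher, and in 19 of 29 with 1 higher at 12 weeks (medians -0.27 and -0.29). Dao, which oxidises D-amino acids and makes hydrogen peroxide, fell from 277 ± 18.1 to 203 ± 19 CPM at 2 weeks (edgeR adjusted p = 0.00031) and from 308 ± 21.9 to 193 ± 28.7 CPM at 12 weeks (edgeR adjusted p = 0.00017). Ddo, the D-aspartate oxidase gene, fell to 0.725 at 2 weeks (edgeR adjusted p = 7e-06).

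**Figure D5:**
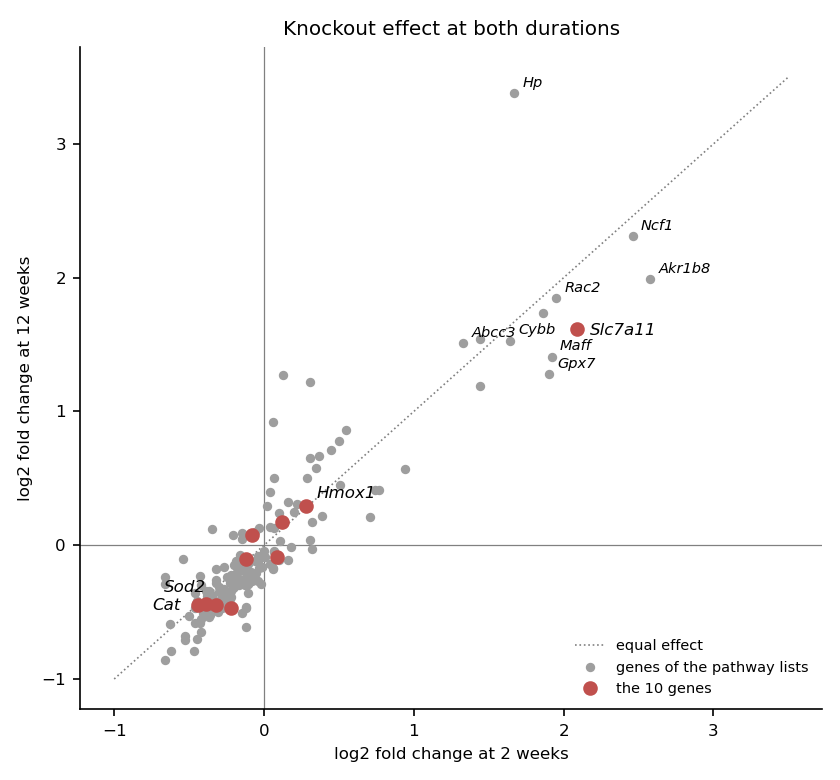
Log2 fold change of knockout over wild type at 2 weeks (x axis) and at 12 weeks (y axis) for the 10 genes (red) and for the tested genes of the pathway lists (grey), with the line of equal effect dotted. Slc7a11 lies at the upper right with genes of several lists, among them Rac2, Ncf1, Maff, Akr1b8 and Gpx7, and Cat and Sod2 lie at the lower left.

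The genes closest in profile differed from member to member. The likeness was the root mean square difference in log2 CPM over the 24 libraries, each gene centred on its own mean. Closest to Cat were Tex2 and Hgd, the homogentisate dioxygenase gene, at 0.08 and 0.09 on the log2 scale. Closest to Sod2 were Acsf3 and Letm1, both genes of mitochondrial proteins, at 0.07 and 0.08. Closest to Gclm were Rtn3 and Atp6v1a, a subunit of the vacuolar proton pump, both at 0.11, and closest to Gclc were Keg1 and Abhd18 at 0.24 and 0.26. Hmox1 was closest to Set and Skap2 at 0.11 and 0.12, and Nfe2l2 to Sde2 and Prpf19 at 0.08 each. Txnrd1 was closest to Cyb5r4 and Rnf130 at 0.08 and 0.09, and Srxn1 to Gtf3c6 and Nsdhl at 0.13 and 0.14. Hmox1, Nfe2l2, Txnrd1 and Srxn1 varied by 0.21, 0.11, 0.14 and 0.21 around their own means. Cat and Sod2 varied by 0.32 and 0.26, so equal distances mean a closer likeness for Cat and Sod2. For Nqo1, which varied by 0.23 around its own mean, the nearest genes, ccdc198 and Fam107b, were at 0.16 and 0.17. For Slc7a11, on few counts, the nearest, Snx10 and Coro2a, were at 0.56. No gene of the 10 was among the 2 nearest of another.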

How the data were processed

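The members and gene lists were chosen with earlier results of these data known. Each deposited file gives the authors' unnormalized counts of reads per gene for 1 library. Per the submitters' processing notes, fastp, STAR 2.5 and HTSeq 0.6.1 were used on mm10; options, strand setting and annotation release were not stated in the sources used here. Of 54532 identifiers 54495 matched GENCODE M21. The 37 others held at most 0.00528% of a library's counts.

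The test was edgeR's two-sided quasi-likelihood test (version 4.0.16, R 4.3.3) on these counts, with TMM scaling, robust dispersions and a threshold of 0.05 on the Benjamini-Hochberg adjusted p over all 17286 genes that passed filterByExpr (minimum count 10, minimum total 15). Genotype comparisons used the 12 libraries of a duration; the interaction and duration tests used all 24. SE is the log2 fold change over the square root of F. The fits were also run on simulated data, with planted changes larger than those of all members but Slc7a11. That run therefore does not cover changes of the size seen for the other members. Levels use TMM over 24 libraries. Named genes are the 10, Lrp2, up to 4 called genes with the smallest adjusted p per pathway list and comparison (2 per marker list), not all of which are printed, and the 2 nearest profiles per member; Atf4, Keap1 and Nox4 were added after their values were seen. Libraries with equal replicate numbers were treated as unpaired in the main tests. As alternatives, the low-count filter was dropped or replaced by a minimum mean of 1 CPM, scaling was changed to upper-quartile or RLE, and the test to DESeq2 1.42.0; further ones were a replicate block, 1 fit of all 24 libraries and leaving out each library. Figures used Python 3.11.15 and matplotlib 3.10.9.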

Additional observations from a re-analysis of the deposited data

Results flagged for a closer look

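In 6 of the 40 groups of 6 libraries (10 genes in 4 groups), 1 library lay far from the others by Dixon's test at its 95% critical value for 6 samples. Chance flags about 1 group in 20. In knockout at 2 weeks replicate 2 was the high library for Nfe2l2 (115 CPM), Gclc (426 CPM) and Gclm (432 CPM). The other 3 were Nqo1 in wild-type replicate 3 at 2 weeks (53.7 CPM), Slc7a11 in wild-type replicate 1 at 2 weeks (0.389 CPM) and Slc7a11 in knockout replicate 2 at 12 weeks (1.85 CPM).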

How the results depend on the processing

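The log2 fold changes and interactions of the 10 genes kept their side of the threshold in 310 of 314 values under other settings and in 941 of 960 with 1 library left out. None of the values that passed changed sign (81 and 156 values), whereas values that did not pass changed sign in 1 of 233 and 38 of 804 cases, most of them interactions near 0. In the interaction test 30 genes passed in edgeR and 154 in DESeq2, and 22 to 56 with 1 library left out, 56 of them without knockout replicate 3 of 12 weeks; the cause was not tested. With 1 library left out, 3 to 6 of the 10 genes passed at 2 weeks, 5 to 7 at 12 weeks, 0 to 1 between durations in wild type and 0 to 2 in knockout. Hmox1 passed as lower at 12 than at 2 weeks in wild type with each of 7 libraries left out (wild-type replicates 1 and 4 and knockout replicates 3 and 6 of 2 weeks, wild-type replicate 6 and knockout replicates 2 and 5 of 12 weeks; edgeR adjusted p = 0.0415 to 0.0499), and in knockout without knockout replicate 6 of 2 weeks or 5 of 12 weeks. Slc7a11, with a mean under 1 CPM, was not tested where a mean of at least 1 CPM was required, and its log2 fold change ran from 1.95 to 2.74 at 2 weeks and from 1.29 to 2.09 at 12 weeks with 1 library left out. Residuals of libraries with equal replicate numbers correlated from -0.281 to 0.171. Libraries with unequal numbers were not compared, so these values do not settle whether the numbers pair the libraries. With a replicate block 4 of the 10 genes passed at 2 weeks and 6 at 12 weeks. Scaling moved the median of all genes by at most 0.02 on the log2 scale. Depth limits Slc7a11 most, at 1 to 23 counts per library.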
